A study of Mus musculus with 18 samples.

Results

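Polycomb repressive complex 1 (PRC1) was followed through 9 of its genes: the E3 ligases Ring1 and Rnf2, the PCGF proteins Bmi1, Pcgf1, Pcgf2 and Pcgf5, and the chromobox proteins Cbx2, Cbx7 and Cbx8. They were taken by symbol from the 2 deposited count tables, which together list 30651 distinct symbols. All 9 are listed in the first experiment and 8 in the second, where Cbx2 was not analysed here, and 8 were tested in each.

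The RNA came from mouse bone marrow leukemic erythroid cells, TgSpi1 #763, which carry a Spi1 transgene and a doxycycline-inducible hairpin against Spi1, and which grew with erythropoietin (EPO). The first experiment compared cells without doxycycline (Exp1_NoDox) and after 48 h of it (Exp1_Dox). The second crossed the same doxycycline treatment with 6 h of 3 µM entinostat, an inhibitor of class I histone deacetylases, or its solvent DMSO (groups NoDox_DMSO and Dox_DMSO with the solvent, NoDox_Entinostat and Dox_Entinostat with the drug). There were 6 groups of 3 libraries, described by the labels as biological replicates with nothing further on separate cultures, so the p-values measure the spread between these libraries. Every group carries the transgene and the hairpin, and all are cells of 1 line. No group had doxycycline without the hairpin, so loss of Spi1 RNA and exposure to doxycycline cannot be told apart. The promoter that drives the transgene is not given in the sources used here.

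PRC1 places ubiquitin on histone H2A through its RING1 or RNF2 ligase, each of which pairs with a PCGF protein. Canonical complexes join PCGF2 or BMI1 (PCGF4) to a CBX protein, which reads the histone H3 mark laid down by PRC2, and to a Polyhomeotic protein. Variant complexes carry RYBP or YAF2 in place of a CBX protein and are sorted by their PCGF subunit, with KDM2B in the PCGF1 complex. In blood cells BMI1 is known for sustaining stem and leukemic cell self-renewal, in part by silencing the Cdkn2a locus.

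Library totals ran from 82674499 to 113804574 counts in the first experiment and from 43116322 to 48855905 in the second. The hairpin target Spi1 fell by 1.73 on the log2 scale in the first experiment (SE 0.10, adjusted p = 0.000828, edgeR), with 379 to 459 CPM (counts scaled by the TMM-corrected library size) in Exp1_NoDox and 125 to 133 in Exp1_Dox. It fell by 1.29 in DMSO (SE 0.33, adjusted p = 0.0264) and by 1.59 in entinostat (SE 0.33, adjusted p = 0.00722), and the DMSO call was lost without the second or the third NoDox_DMSO library or the first or the third Dox_DMSO library (adjusted p = 0.0507 to 0.0903). All 7 erythroid markers passed 1 CPM in every group, but several differed in level. Gata1 was 275 to 309 CPM in NoDox_DMSO and 127 to 170 in NoDox_Entinostat, Klf1 109 to 114 and 33.3 to 55.6, and Epor 96.7 to 105 and 33.9 to 35.5. The globin gene Hbb-bt was 118 to 214 CPM and 399 to 603, Hba-a1 11.3 to 23.9 and 27.5 to 41.2, and Alas2 4.76 to 7.79 and 19 to 26.3. Tfrc was 2460 to 2860 CPM and 2000 to 2370. In Dox_DMSO, Epor (143 to 162 CPM), Hba-a1 (73.1 to 200), Alas2 (14.8 to 34.8), Tfrc (3530 to 4160) and Klf1 (116 to 210) lay above NoDox_DMSO. Gata1 (243 to 354) and Hbb-bt (172 to 242) overlapped it. The summed level of the 4 mast cell markers was 5.45 to 13.3 CPM in the DMSO groups and 34.5 to 106 CPM in the entinostat groups. Most of the latter was 1 gene, Fcer1a, at 24.1 to 94.8 CPM in NoDox_Entinostat. Kit and Cpa3 reached 11.2 and 4.58 CPM there, and Mcpt8 was 0. The macrophage list also went from 1.68 to 3.71 CPM in DMSO to 3.36 to 12.8 CPM in entinostat, and the T cell list from at most 0.135 CPM to 0.759 to 1.48 CPM, and the stroma and endothelium list from 0.0432 to 0.18 CPM to 1.03 to 2.91 CPM, while neutrophil and B cell markers stayed under 1 CPM. The part of these markers in the members' results was not tested. A lower level in such bulk RNA can come from fewer cells of a type or from less RNA per cell, which cannot be told apart.

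2 libraries of the second experiment, the first of NoDox_Entinostat and the first of Dox_DMSO, are called below the libraries that stood apart. The first NoDox_Entinostat library correlated with its own group at 0.97 at the lowest and with a library of another group at up to 0.976 (log2 CPM, across genes). The first Dox_DMSO library reached 0.979 both within and outside its group, and the others of Dox_DMSO were alike (0.98 and 0.981, 0.979 and 0.98). The lowest values of the others can be their correlations with this first library. They therefore cannot show whether it differed from its group. Its TMM factor was 0.876, against 0.949 and 0.95 for the others of Dox_DMSO. Leaving out the first Dox_DMSO library gave 2637 interaction calls, and leaving out the first NoDox_Entinostat library 3061, in place of 41. The pair was picked after seeing the data, so p-values without it are not those of a planned test. Values without both libraries are given beside the members' results whose call they change, and beside the list counts.

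The 3 genes with the largest entinostat responses are shown first by their promoters, since Bmi1 and Pcgf5 fell and Cbx7 rose. The windows are RefSeq's for GRCm38.p6, running 5′ to 3′ on the gene's strand from 250 bases before the start site to 50 after it, and 7 of the 9 members had one. Capitals mark GGAA on either strand, the core read by ETS factors such as SPI1, and the E-box CACGTG.
Bmi1 (chr2:18676768-18677067, plus strand): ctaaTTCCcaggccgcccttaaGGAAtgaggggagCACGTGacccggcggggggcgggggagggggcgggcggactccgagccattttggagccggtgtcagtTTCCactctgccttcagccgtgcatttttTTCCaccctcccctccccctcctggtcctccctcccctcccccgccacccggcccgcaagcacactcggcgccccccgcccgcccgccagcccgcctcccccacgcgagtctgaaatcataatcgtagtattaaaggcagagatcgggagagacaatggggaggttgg
Pcgf5 (chr19:36348079-36348378, plus strand, the first of 3 start sites): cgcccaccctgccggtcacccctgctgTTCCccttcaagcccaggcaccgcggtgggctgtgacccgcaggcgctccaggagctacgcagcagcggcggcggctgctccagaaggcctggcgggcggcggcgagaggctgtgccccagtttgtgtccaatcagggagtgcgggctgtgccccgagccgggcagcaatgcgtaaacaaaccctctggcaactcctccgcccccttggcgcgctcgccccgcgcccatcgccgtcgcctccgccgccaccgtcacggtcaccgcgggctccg
Cbx7 (chr15:79932597-79932896, minus strand): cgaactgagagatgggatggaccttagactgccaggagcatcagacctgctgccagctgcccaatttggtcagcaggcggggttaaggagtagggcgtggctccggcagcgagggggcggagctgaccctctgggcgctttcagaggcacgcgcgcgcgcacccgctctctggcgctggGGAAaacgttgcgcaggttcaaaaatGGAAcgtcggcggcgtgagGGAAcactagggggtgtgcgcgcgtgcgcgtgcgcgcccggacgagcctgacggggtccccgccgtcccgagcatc
The window of Bmi1 held 4 matches to GGAA on either strand and 1 CACGTG. That of Cbx7 held 3 and that of Pcgf5 held 1, and neither held the E-box. The GGAA core occurs in 96% of 32851 RefSeq promoter windows of this length and CACGTG in 7.15%, so a GGAA match is common to nearly all of them. Among the members CACGTG was also present in the windows of Cbx8 and Pcgf2, and GAGGAA, the longer core that SPI1 prefers, in 28.3% of all windows. GAGGAA was in none of the 3 windows printed, and in those of Cbx8, Pcgf2 and the third start site of Pcgf5.

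**Figure D1:**
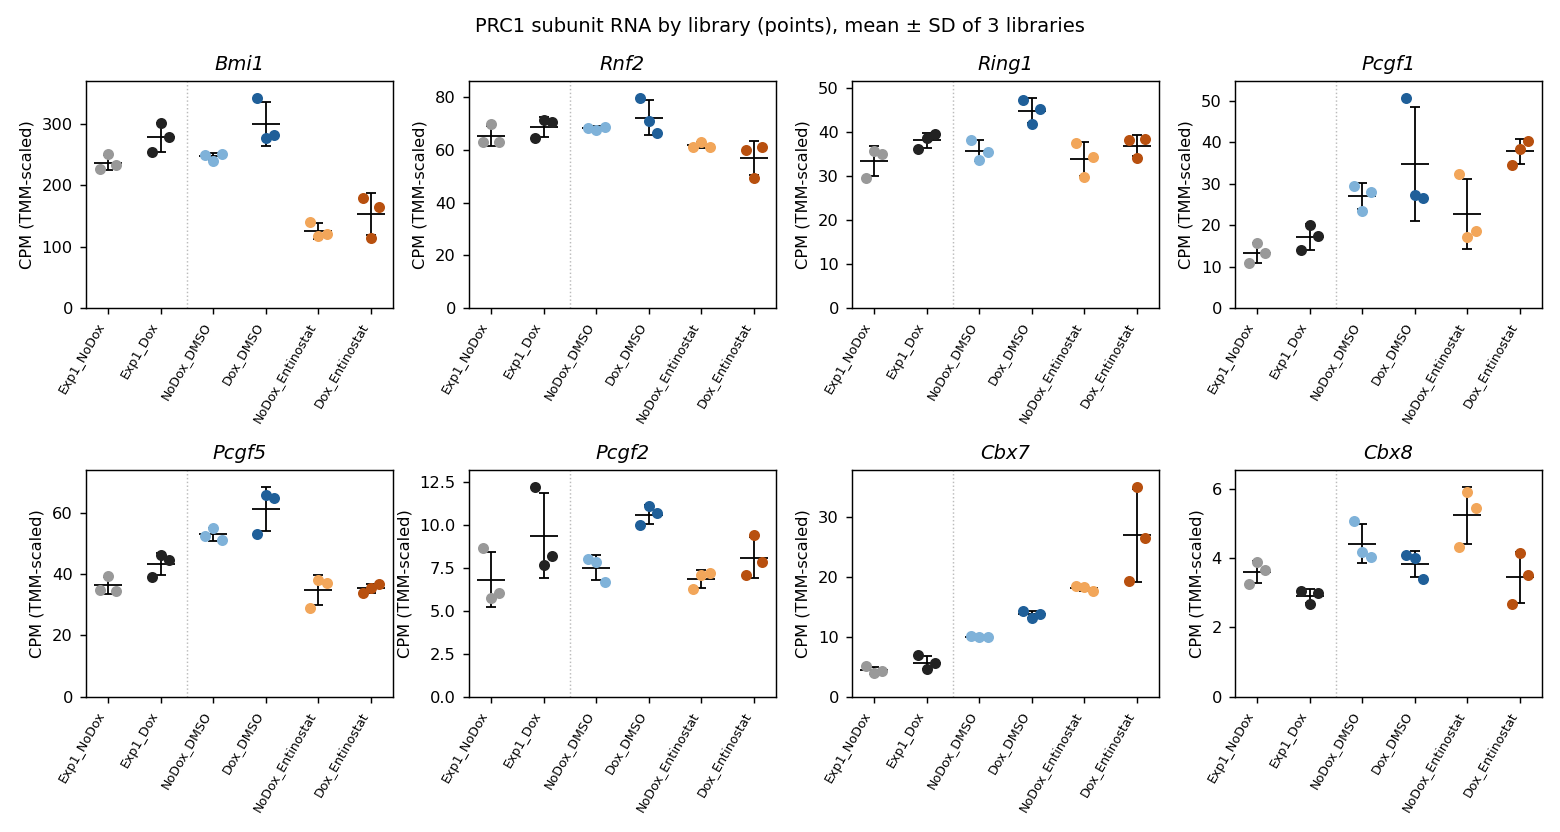
CPM (TMM-scaled) of 8 PRC1 genes in each library (points) with the mean and SD of 3 libraries (bars); the dotted line separates the 2 experiments, which were scaled separately. Bmi1 and Pcgf5 are lower and Cbx7 is higher in both entinostat groups than in both DMSO groups.

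Bmi1 was the most abundant member per kilobase of exon in all 6 groups, at 59.8 ± 3.13 CPM per kb in Exp1_NoDox and 62.2 ± 1.56 in NoDox_DMSO (SD, n = 3 each). Rnf2 stood at 15.8 ± 0.952 and 16.6 ± 0.155, Ring1 at 10.3 ± 1.03 and 11 ± 0.724, and Pcgf1 at 8.05 ± 1.47 and 16.3 ± 1.89 in the same groups. The libraries of Ring1 and Pcgf1 overlapped in Exp1_NoDox, and those of Rnf2 and Pcgf1 in NoDox_DMSO, so these neighbours were not in a fixed order. Pcgf5 followed at 2.88 ± 0.217 and 4.2 ± 0.162 CPM per kb, then Pcgf2 at 1.93 ± 0.455 and 2.13 ± 0.205. The chromobox genes were lowest, Cbx8 at 0.981 ± 0.0867 and 1.2 ± 0.152 and Cbx7 at 0.682 ± 0.0923 and 1.55 ± 0.00754. Cbx2 stood at 1 in all 6 libraries of the first experiment, which is the lowest value that table holds for any gene, and it did not pass the filter. In both entinostat groups Cbx7 moved up to the fifth place, at 2.8 ± 0.075 CPM per kb without doxycycline, where it overlapped Pcgf5, and at 4.16 ± 1.21 with it, where it did not. This order depends on the exon length used, which is 12629 bases for Pcgf5. In CPM alone Pcgf5 stayed above Cbx7, at 34.8 against 18.1 in NoDox_Entinostat and 35.4 against 27 in Dox_Entinostat.

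Bmi1 was lower with entinostat in cells with and without doxycycline. Bmi1 (chr2:18677018-18686629, mm10, plus strand) encodes a PCGF subunit of canonical PRC1. Its level was 250, 240 and 252 CPM in the NoDox_DMSO libraries and 141, 117 and 120 in NoDox_Entinostat. With doxycycline it was 342, 277 and 282 CPM in DMSO and 180, 115 and 164 in entinostat. Every entinostat library lay below every DMSO library. Bmi1 fell by 0.97 on the log2 scale without doxycycline (SE 0.19, 95% interval -1.38 to -0.56, adjusted p = 0.00105, edgeR) and by 0.97 with it (SE 0.19, adjusted p = 0.000734). Both calls held under each of 21 other settings, the left-out libraries included.

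Pcgf5 (chr19:36348309-36460970, plus strand), which defines a variant PRC1 complex without a CBX subunit, was also lower. Its levels were 52.7, 55.3 and 51.2 CPM in NoDox_DMSO and 29.1, 38 and 37.2 in NoDox_Entinostat, then 53.2, 66 and 65 in Dox_DMSO and 33.8, 35.5 and 36.9 in Dox_Entinostat. The entinostat and DMSO libraries did not overlap. Pcgf5 fell by 0.61 without doxycycline (SE 0.15, adjusted p = 0.00477) and by 0.79 with it (SE 0.15, adjusted p = 0.000614). Scaled by library size alone, the first of these was -0.35 and did not pass (adjusted p = 0.126). An antisense gene, F530104D19Rik, shares 60 exon bases with Pcgf5, or 0.475% of its exon length, and with this unstranded kit its reads cannot be told apart there.

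Cbx7 (chr15:79915807-79971119, minus strand), a chromobox subunit that binds trimethylated histone H3, went the other way. It stood at 10.1, 9.99 and 10 CPM in NoDox_DMSO and at 18.5, 18.3 and 17.6 in NoDox_Entinostat. In the doxycycline groups it was 14.3, 13.1 and 13.8 CPM in DMSO and 19.4, 35 and 26.5 in entinostat, where the 3 libraries were widely spread. The groups did not overlap in either comparison. Cbx7 rose by 0.85 (SE 0.19, adjusted p = 0.00244) without doxycycline, or 1.81-fold, and by 0.97 (SE 0.19, adjusted p = 0.000717) with it, or 1.96-fold, and both calls held in each of 21 settings. Cbx7 shares 100 exon bases, 1.54% of its exon length, with Apobec3 on the other strand. Apobec3 differed by -0.33 (adjusted p = 0.23) without doxycycline and by -0.65 (adjusted p = 0.0187) with it. The part of the shared bases in the Cbx7 value was not tested.

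The ligase genes showed small differences. Rnf2 (chr1:151458004-151500955), the main H2A ligase of PRC1, was 79.6, 70.9 and 66.5 CPM in Dox_DMSO and 60.2, 49.5 and 61 in Dox_Entinostat, without overlap. It fell by 0.35 with doxycycline present (SE 0.14, adjusted p = 0.0423), a call kept in 8 of 21 settings. It was lost without any 1 of 9 libraries, namely all 3 of NoDox_DMSO, the first or second of Dox_DMSO, or the second or the third of either entinostat group (adjusted p = 0.0552 to 0.123). Without doxycycline the difference was -0.14 (95% interval -0.44 to 0.15). Rnf2 shares 158 exon bases, 3.83% of its exon length, with Trmt1l on the other strand, which was also lower with doxycycline present (-0.93, adjusted p = 0.00274), and the part of this in the Rnf2 value was not tested. Ring1 (chr17:34020792-34024680), the paralogous ligase, differed by -0.08 (95% interval -0.38 to 0.22) without doxycycline and -0.28 (-0.58 to 0.02) with it, and did not pass. Without the 2 libraries that stood apart, Ring1 with doxycycline was -0.245 and passed (adjusted p = 0.0487). Scaled by library size alone, Ring1 and Rnf2 without doxycycline became positive, at 0.17 and 0.11.

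Of the other members with entinostat, Pcgf2 (chr11:97688823-97700497), the PCGF paralog of Bmi1, differed by -0.13 without doxycycline and by -0.39 with it (SE 0.17, adjusted p = 0.0585), where it was 10, 11.1 and 10.7 CPM in DMSO and 7.07, 9.39 and 7.84 in entinostat. The second of these passed when 1 library was left out, the first of Dox_DMSO (adjusted p = 0.0475), the first of NoDox_Entinostat (0.0444) or the second of Dox_Entinostat (0.0253). It also passed by DESeq2 (adjusted p = 0.0368) and limma-voom (adjusted p = 0.0474). Without the 2 libraries that stood apart it was -0.435 (adjusted p = 0.017). Cbx8 (chr11:119036305-119040969), another chromobox subunit, differed by 0.24 and -0.15, with intervals of -0.22 to 0.71 and -0.62 to 0.32. Pcgf1 (chr6:83077869-83080855), the subunit of the KDM2B complex, differed by -0.25 and 0.12 and had a wide spread, described with doxycycline below. Thus 1 member rose and 2 fell without doxycycline, and 1 rose and 3 fell with it.

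Entinostat moved a large part of the transcriptome, and the members' calls have to be read against that. Without doxycycline 3 of 8 members passed, against 47.2% of 15051 genes (30.3% up and 16.9% down). With doxycycline 4 of 8 passed, against 63.7% (33.9% up and 29.9% down). The members' shares were thus no higher than those of all genes. Non-overlapping groups were seen in 4 of 8 and 6 of 8 members, against 60.2% and 66% of genes. The median log2 fold change of the members was -0.14 and -0.31, and that of all genes 0.07 and 0.14. Scaled by library size alone the median of all genes became 0.32 and 0.28, and the share of calls that were up went from 64.1% to 81.5% without doxycycline. Without the 2 libraries that stood apart, 63.9% and 77.8% of genes passed. With doxycycline 7 of 8 members then did, all but Cbx8, Pcgf1 among them at 0.48 (adjusted p = 0.00191), while Pcgf1 also passed without doxycycline, at -0.60 (adjusted p = 0.000653).

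**Figure D2:**
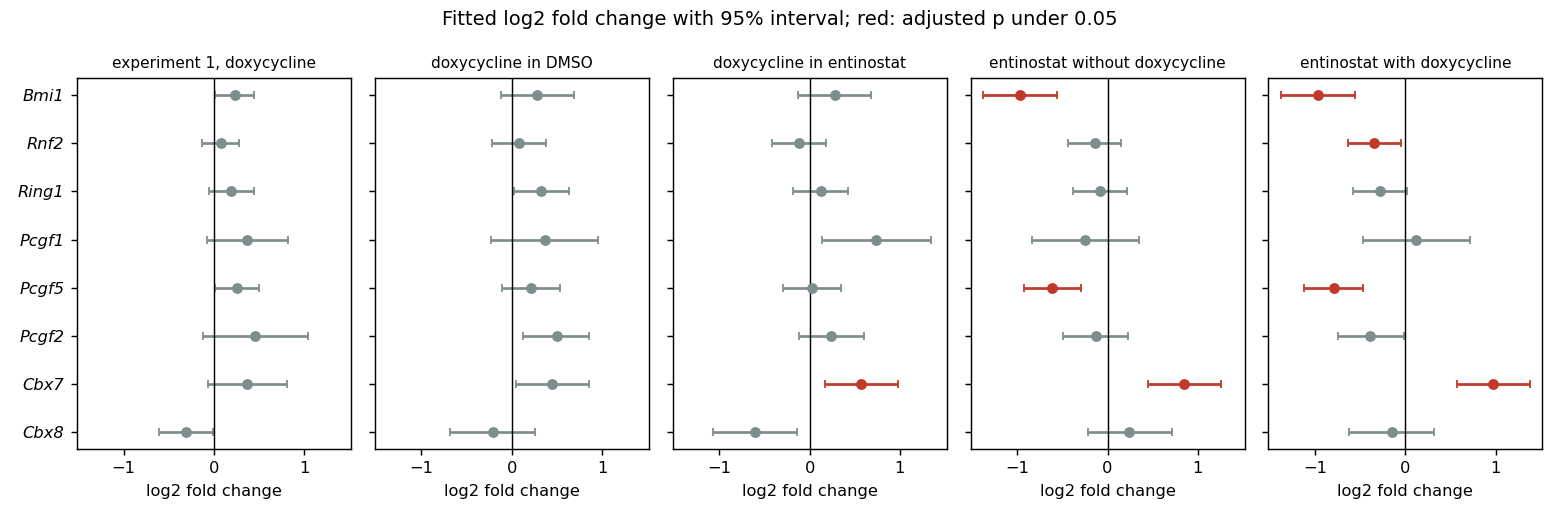
Fitted log2 fold change (x axis) of each tested PRC1 gene in the 5 comparisons, with 95% intervals; red marks an adjusted p under 0.05. Bmi1, Pcgf5 and Cbx7 are red in both entinostat comparisons, and the doxycycline comparisons hold 1 red point, Cbx7 in entinostat.

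In the first experiment 0 of 8 members passed, against 13.6% of 13811 genes, with 3 at an unadjusted p under 0.05 and 0 by DESeq2 or limma-voom. In DMSO 0 of 8 passed, against 9.31% of 15051 genes, again with 3 unadjusted, and DESeq2 called 1, Pcgf2. Non-overlapping groups were seen in 3 of 8 members in the first experiment (32.1% of genes) and in 4 of 8 in DMSO (25.8%). These experiments share no library, and the fold changes had the same sign in both for 8 of 8 members, 7 higher and 1, Cbx8, lower. Over 12643 genes tested in both, 81.6% had the same sign, 46.1% as higher and 35.5% as lower.

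Libraries with the same replicate number in the first experiment deviated together, so the number was also fitted as a block. This pairing was read from the data and is not stated by the labels. With it 7 of 8 members passed, 6 up and 1 down, but so did 50.9% of genes. Pcgf1 was 10.9, 15.7 and 13.2 CPM in Exp1_NoDox and 14, 20.1 and 17.3 in Exp1_Dox, which overlapped as groups and were higher with doxycycline within each number. Its log2 difference was 0.37 (SE 0.19, adjusted p = 0.282) and passed with the block (adjusted p = 0.000266). Pcgf2 was 8.65, 5.74 and 6.02 CPM against 12.2, 7.66 and 8.22, a difference of 0.46 (SE 0.24, adjusted p = 0.303) that likewise passed with the block (adjusted p = 0.000286). Bmi1, at 227, 251 and 234 CPM against 254, 302 and 279, differed by 0.23 (SE 0.09, adjusted p = 0.165, or 0.000534 with the block), and its groups did not overlap. With the block the adjusted p was 0.00222 for Pcgf5, 0.00358 for Cbx7, 0.00848 for Ring1 and 0.0296 for Cbx8, and Rnf2 did not pass.

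In DMSO the members' differences with doxycycline were of like size. Pcgf2 was 8, 7.84 and 6.68 CPM in NoDox_DMSO and 10, 11.1 and 10.7 in Dox_DMSO, without overlap, a difference of 0.50 (SE 0.17, adjusted p = 0.0932). Cbx7, Ring1 and Bmi1 did not overlap either and differed by 0.45 (adjusted p = 0.189), 0.32 (adjusted p = 0.208) and 0.28 (adjusted p = 0.477). Pcgf5 differed by 0.21, Rnf2 by 0.08 and Cbx8 by -0.21. Without the 2 libraries that stood apart, Pcgf2 (0.54, adjusted p = 0.0148) and Pcgf5 (0.30, adjusted p = 0.0198) passed, as did 31.3% of all genes.

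In entinostat, doxycycline raised 1 of 8 members, against 24% of genes (8.96% up and 15.1% down), and 4 of 8 did not overlap, against 37.6%. Scaled by library size alone, the share of calls that were up went from 37.3% to 26%. Cbx7 rose by 0.57 (SE 0.19, adjusted p = 0.0427), from 18.5, 18.3 and 17.6 to 19.4, 35 and 26.5 CPM. This call was kept in 8 of 21 settings. It was lost without any 1 library of NoDox_DMSO, the second or the third of Dox_DMSO, NoDox_Entinostat or Dox_Entinostat (adjusted p = 0.0552 to 0.161), and without the second Dox_Entinostat library the value was 0.34. Cbx8 was 4.33, 5.92 and 5.45 CPM against 2.69, 4.14 and 3.5, a difference of -0.60 (SE 0.22, adjusted p = 0.0586). Without the first Dox_DMSO library or the first NoDox_Entinostat library Cbx8 passed (adjusted p = 0.0424 and 0.0175), and without both it was -0.73 (adjusted p = 0.00648). DESeq2 and limma-voom also called Cbx8 (adjusted p = 0.0298 and 0.0481).

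Pcgf1 turned most on the libraries that stood apart. In DMSO it was 29.5, 23.5 and 27.9 CPM without doxycycline and 50.6, 27.2 and 26.5 with it, so that the first Dox_DMSO library alone lay above all the others. In entinostat it was 32.4, 17.1 and 18.6 CPM without doxycycline, the first library again the highest, and 34.6, 38.5 and 40.4 with it. The doxycycline difference was 0.37 in DMSO (SE 0.28, adjusted p = 0.545) and 0.74 in entinostat (SE 0.28, adjusted p = 0.0671). In entinostat it passed by DESeq2 (adjusted p = 0.0385) and limma-voom (adjusted p = 0.0468). Without both libraries it was -0.005 in DMSO (adjusted p = 0.999) and 1.08 in entinostat (adjusted p = 4.38e-06), where 61.8% of genes passed. The left-out libraries held the highest Pcgf1 values of their groups and were picked after seeing the data. These p-values are thus not those of a planned test.

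Whether entinostat altered the doxycycline response was tested as an interaction. None of 8 members passed, with 0 at an unadjusted p under 0.05 and 0 by DESeq2 or limma-voom, and 0.272% of 15051 genes did. The difference between the responses was 0 for Bmi1 (95% interval -0.58 to 0.57), 0.12 for Cbx7 (-0.45 to 0.69), -0.40 for Cbx8 (-1.06 to 0.27) and 0.37 for Pcgf1 (-0.47 to 1.21). Without the 2 libraries, a choice made after seeing the data, Pcgf1 (1.08, adjusted p = 9.68e-05) and Pcgf5 (-0.39, adjusted p = 0.0188) passed, along with 51.5% of all genes.

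Ratios between members within a library need no scaling between libraries. The ratio of Cbx7 to Cbx8, each per kb, was 0.881, 0.567 and 0.666 in Exp1_NoDox and 1.28, 0.987 and 1.05 in Exp1_Dox. In the second experiment it was 1.13, 1.35 and 1.42 in NoDox_DMSO and 1.99, 1.86 and 2.3 in Dox_DMSO. It was 2.42, 1.75 and 1.83 in NoDox_Entinostat and 4.09, 4.79 and 4.29 in Dox_Entinostat. The ratio was thus higher with either agent and highest with both, without overlap in any of the 5 comparisons. The fold was 1.59 for doxycycline in the first experiment, 1.58 in DMSO and 2.21 in entinostat, and 1.53 and 2.15 for entinostat without and with doxycycline. Each had an exact two-sided permutation p of 0.1, the smallest that 3 libraries against 3 allow, or 0.192 adjusted over 25 ratio tests.

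The ratio of Bmi1 to Cbx7 went from 40.4, 39.2 and 41 in NoDox_DMSO to 12.5, 10.4 and 11.1 in NoDox_Entinostat, and from 39, 34.5 and 33.3 in Dox_DMSO to 15.1, 5.36 and 10.1 in Dox_Entinostat. The groups did not overlap, and the ratio in entinostat was 0.282 and 0.263 times that in DMSO (exact permutation p = 0.1 each, adjusted 0.192). The ratio of Rnf2 to Ring1 was above 1 in every library. It was 1.5 ± 0.0895 in NoDox_DMSO and 1.27 ± 0.102 in Dox_DMSO (SD, n = 3 each), without overlap, and 1.45 ± 0.199 and 1.21 ± 0.0601 in the entinostat groups.

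**Figure D3:**
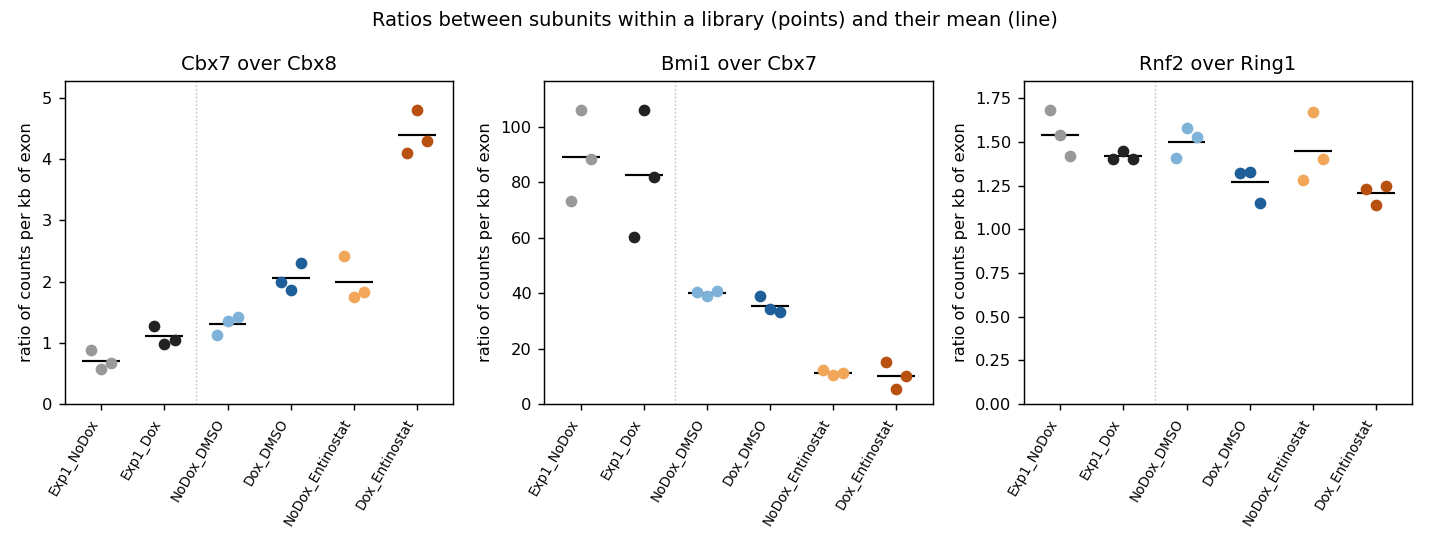
Ratio of counts per kb between 2 PRC1 genes (y axis) in each library (points) and its mean over 3 libraries (line); the dotted line separates the 2 experiments. Cbx7 over Cbx8 is highest in Dox_Entinostat, at 4.09 to 4.79, and Bmi1 over Cbx7 is lowest in the entinostat groups.

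Within the PCGF family of 6 genes, Bmi1 gave 54% ± 0.256 of the summed level per kb in NoDox_DMSO and 54.4% ± 0.224 in Dox_DMSO (SD, n = 3 each), and 45.1% ± 0.194 and 43.9% ± 5.83 in the corresponding entinostat groups. Pcgf1 made up 14.2% ± 1.32 in NoDox_DMSO, 14.9% ± 4.01 in Dox_DMSO, 19.2% ± 4.97 in NoDox_Entinostat and 26.6% ± 3.8 in Dox_Entinostat. In NoDox_Entinostat its libraries ran from 15.9% to 24.9%. Pcgf6, which is the PCGF subunit of the E2F6 and MGA complex, held 18.5% to 22.8% on average in the second experiment.

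**Figure D4:**
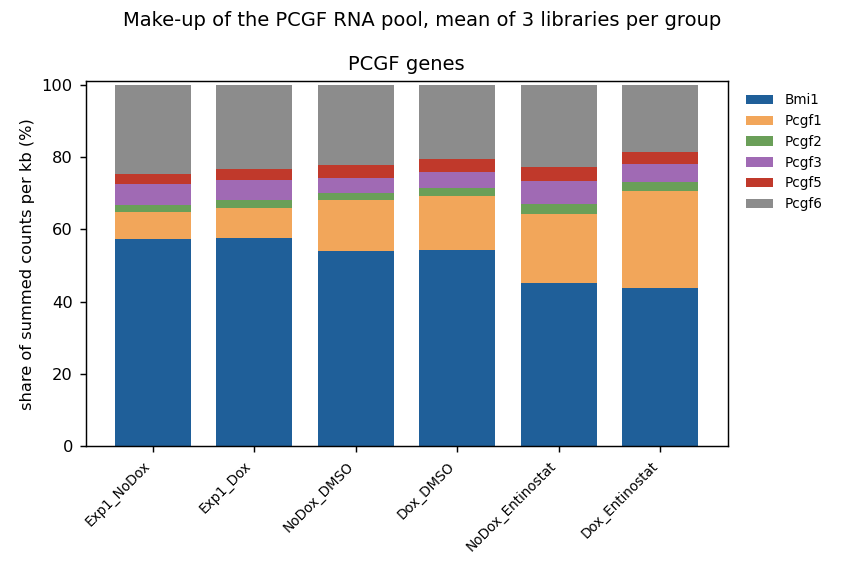
Share (%) of each gene in the summed counts per kb of the PCGF family, as the mean of 3 libraries per group. The Bmi1 share is smaller in the entinostat groups, at 45.1% and 43.9%, than in the DMSO groups, at 54% and 54.4%.

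Other genes of the pathway were taken from 4 lists. Of 15 tested partners of variant PRC1, 0 rose and 6 fell with entinostat alone and 0 rose and 12 fell with entinostat on doxycycline, with medians of -0.55 and -0.82. Of all genes tested 16.9% and 29.9% fell. Scaled by library size alone, 1 and 9 of the 15 fell, as did 1233 and 3712 of all 15051 genes. Without the 2 libraries that stood apart 9 and 14 fell while 2 and 1 rose, where 63.9% and 77.8% of all genes passed in either direction. Pcgf6 fell by 0.68 without doxycycline (adjusted p = 0.000968), a call kept in 21 of 21 settings, and L3mbtl2, which joins the PCGF6 complex, by 1.10 (adjusted p = 0.00832). Kdm2b, the CpG island reader of the PCGF1 complex, fell by 1.36 with doxycycline present (SE 0.22, adjusted p = 0.000246), and Usp7, a deubiquitinase found in variant PRC1, by 1.54 (SE 0.31, adjusted p = 0.000852). Of 8 genes of the PR-DUB complex, which removes ubiquitin from H2A, 4 and then 6 fell and 0 rose, or 0 and 6 with library size alone and 5 and 8 without the 2 libraries. Hcfc1 fell by 1.63 (adjusted p = 0.00114) and Asxl1 by 1.15 (adjusted p = 0.00259) with doxycycline present. Phc2, a Polyhomeotic gene of canonical PRC1, fell by 1.06 with doxycycline present (adjusted p = 0.000365). The named genes with doxycycline present kept their calls in 21 of 21 settings. Without doxycycline, L3mbtl2 did not pass when scaled by library size alone (-0.83, adjusted p = 0.053). The list counts under these 2 settings were chosen after seeing the data.

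Of 12 genes known as PRC1 targets, 7 were tested in the second experiment. With entinostat 5 rose and 0 fell without doxycycline, and 2 rose and 0 fell with it, where 30.3% and 33.9% of all genes rose, so the second count is near the share of all genes. With library size alone 7 and 2 rose, as did 5417 and 5770 of all 15051 genes. Without the 2 libraries 5 and 1 rose while 0 and 1 fell, where 63.9% and 77.8% of all genes passed in either direction. Cdkn2b, a cell cycle inhibitor, was 5.44, 7.15 and 8.31 CPM in NoDox_DMSO and 14.1, 12.9 and 15.3 in NoDox_Entinostat, and rose by 1.02 (SE 0.18, adjusted p = 0.000634). With doxycycline it rose by 1.21 (SE 0.19, adjusted p = 0.000148), and both calls were kept in 21 of 21 settings. Hoxa7, 1 of the 5 and 1 of the 2, passed on few counts, 0, 2 and 1 in NoDox_DMSO against 12, 10 and 7 in NoDox_Entinostat (adjusted p = 0.0065). With doxycycline it had 3, 8 and 2 counts against 16, 11 and 9 (1.44, adjusted p = 0.0446), a call kept in 7 of 19 settings and lost without the 2 libraries (adjusted p = 0.0943). Its DMSO counts were under the level of the filter, so it was tested only through the entinostat libraries, where it is high. The rise of Hoxa7 is thus not independent support for the list counts. Cdkn2a, which encodes p16 and p19ARF, fell with doxycycline in entinostat by 0.80 (SE 0.20, adjusted p = 0.0177), from 206, 159 and 223 to 140, 84.1 and 114 CPM. That call was lost without the third NoDox_Entinostat library or the second or the third Dox_Entinostat library (adjusted p = 0.0622 to 0.0874).

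With doxycycline, Scmh1, a Polyhomeotic-binding subunit and 1 of the canonical genes, passed in the first experiment and in DMSO, where 13.6% and 9.31% of all genes did. It was 13.8, 10.9 and 11.2 CPM against 28.9, 20.6 and 21.5 in the first experiment, a rise of 0.99 (SE 0.17, adjusted p = 0.0137). In DMSO it rose by 1.13 (SE 0.27, adjusted p = 0.0165), from 11.6, 13.5 and 11.5 to 17.4, 31.9 and 30.7 CPM. The first call was lost without the third Exp1_NoDox library (adjusted p = 0.0762), and the second without the first or the third NoDox_DMSO library or the second or the third Dox_DMSO library (adjusted p = 0.0678 to 0.0784). Hoxd8 also passed in both, at 0.44 (adjusted p = 0.028) and 0.54 (adjusted p = 0.0267), and is a Hox gene expressed in these cells at 28.6 to 48.3 CPM in those groups. Its first call was lost without the first or the third Exp1_NoDox library or the second or the third Exp1_Dox library (adjusted p = 0.0716 to 0.145). Its second was lost without any 1 library of NoDox_DMSO, the second or the third of Dox_DMSO or the third of Dox_Entinostat (adjusted p = 0.0505 to 0.146). Of 15 variant partners E2f6 alone passed in the first experiment, at 0.34 (adjusted p = 0.024), and its call was lost without any 1 of the 6 libraries (adjusted p = 0.0543 to 0.141). In DMSO 0 of 15 passed, with 1 at an unadjusted p under 0.05. Without the 2 libraries 9 of the 15 and 7 of the 8 PR-DUB genes passed, all upward, where 31.3% of all genes passed. Doxycycline in entinostat called 0 of 15 and 1 of 8, upward, where 24% of all genes passed. Without the 2 libraries 9 and 5 fell and 1 of each list rose, where 61.8% of all genes passed.

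Genes whose level over the 6 groups ran closest to that of Bmi1 were sought among 8608 genes, by the root mean square difference of centred log2 group means. The closest to Bmi1 were Lins1 (0.0447), Lemd2 (0.0459) and Orc2 (0.0474). The closest to Cbx7 were Ift80 (0.0635), Pclaf (0.0657) and Smim14 (0.0668). Over the groups of the second experiment alone Cbx7 spanned 1.38 and Bmi1 1.25 on the log2 scale, the widest ranges of the 8 members, and Rnf2 spanned 0.35, the narrowest.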

How the data were processed

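RNA from 6 and 12 mouse cell libraries was read as whole-number counts per gene, as deposited by the authors in 2 tables. STAR, DESeq2, bcl2fastq 2.17.1.14 and the build mm10 are named in the submitters' processing notes. The counter and its annotation are not given in the sources used here. In the first table the lowest value is 1, and 3543 genes stand at 1 throughout; 1 was subtracted as an alternative. Each table was fitted alone with edgeR 4.0.16 (R 4.3.3): TMM scaling, filterByExpr, quasi-likelihood tests on group means, Benjamini-Hochberg over all 13811 and 15051 genes tested, threshold 0.05. CPM are TMM-scaled, and levels per kb use merged GENCODE M21 exons. Intervals are 95%.

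Alternatives were RLE factors, library size alone, other filters, DESeq2 1.42.0, limma-voom (limma 3.58.1), the replicate block, 2 groups alone, and left-out libraries. Deviations of same-numbered libraries correlated at 0.313 to 0.829 in the first experiment (3 pairs), which was taken as pairing, from the data and not from the design. The code was tested on simulated data. All members were named, and of each other list at most the 4 genes called with the largest change. The members and lists were chosen with earlier results of these data known. Among the other canonical PRC1 genes, some results are not reported here.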

Additional observations from a re-analysis of the deposited data

How the results depend on the processing

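The members' calls with entinostat for Bmi1 and Cbx7 were kept in each of the 21 settings tried. In the first experiment the genes called went from 1881 to 1103 with no filter and to 7027 with the replicate block, with 7 members. In DMSO, DESeq2 and the replicate block each called 1 member (Pcgf2). For doxycycline in entinostat the replicate block gave 6115 genes in place of 3614, and the members called were 3 by DESeq2, 2 by limma-voom, 3 with the block (Cbx7, Cbx8 at -0.608, adjusted p = 0.0317, and Pcgf1 at 0.812, adjusted p = 0.0109) and 0 with the 2 groups alone. Interaction calls went from 41 to 206 with no filter, 235 by DESeq2 and 177 with the block. With both libraries that stood apart left out, doxycycline called 4846 genes and 2 members in DMSO, 9569 genes and 3 members in entinostat, entinostat on doxycycline called 7 members, and the interaction called 7972 genes and 2 members. The cause of these changes was not tested. In the second experiment deviations of same-numbered libraries correlated at 0.00947 to 0.78 (18 pairs), which did not meet the rule for pairing, though each of 12 libraries correlated best with its own number, a hint from the data and not from the design.

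Signs turned for members that had not passed. Library size alone gave Ring1 -0.013 and Pcgf5 -0.125 for doxycycline in entinostat, and Ring1 0.167, Rnf2 0.106 and Pcgf2 0.124 for entinostat alone. Pcgf5 for doxycycline in entinostat was -0.082 with no filter and -0.091 without both libraries, and Pcgf1 in DMSO was -0.005. The Bmi1 interaction was 0.024 with RLE factors and by DESeq2, 0.031 with the 1 CPM filter and 0.188 without both libraries.

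Leaving out 1 library at a time gave 684 to 1508 genes in the first experiment, 862 to 1741 in DMSO, 994 to 7583 for doxycycline in entinostat (0 to 3 members) and 9 to 3061 for the interaction. Over these fits the log2 values ran from -0.139 to 0.167 (Bmi1) and -0.112 to 0.305 (Cbx7) for the interaction, -0.003 to 0.529 (Pcgf1 in DMSO), -0.052 to 0.481 (Pcgf1, entinostat with doxycycline), -0.093 to 0.088 (Pcgf5, doxycycline in entinostat) and -0.164 to 0.003 (Ring1, entinostat alone). Cbx8 rests on 120 to 433 counts a library and Cbx7 on 383 to 1540. In the first experiment the SE was 0.18 for Cbx7, 0.12 for Cbx8 and 0.09 for Bmi1. For doxycycline and entinostat in the second it was 0.19 for both Cbx7 and Bmi1, and 0.21 to 0.22 for Cbx8. The part of the counts in these SEs was not tested.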
